A study of Mus musculus with 12 samples.

Results

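The effect of a Tet2 knockout on DNA methylation was followed in mouse embryonic stem cells (ESCs) before differentiation, with reduced representation bisulfite sequencing (RRBS). The tested cells were 2 Tet2 knockout (KO) clones and the controls were 3 wild type (WT) clones, all kept on gelatin without feeders in the presence of LIF, the cytokine that holds ESCs in the undifferentiated state. All clones came from 1 parental line with a green fluorescent reporter at Oct4, and the alleles located in the Tet2 KO clones carry small deletions made with CRISPR/Cas9. Differences between clones of that line therefore stand in for biological replicates. The description below covers every row of the list of CpGs that differed between Tet2 KO and WT cells, 6888 CpGs of the 31671 entries in all 5 lists of the series. The other lists compare Tet1 KO, Tet1 and Tet2 double KO (DKO) and triple KO (TKO) cells with the same WT clones, and Tet2 KO with Tet1 KO cells. For some DKO and TKO libraries the genotype label differs from the title, and the titles were followed. Members of the Tet2 KO list had passed a minimum read coverage, a q-value and a minimum change in the authors' deposited analysis. Each value is a single difference in methylation between the pooled clones, Tet2 KO minus WT, in percentage points. Levels, reads and single clones are not part of the list used here, so no spread between clones can be given and the depth behind each value is unknown. No test over CpGs was made, because CpGs are not replicates, and the exact 95% intervals given for shares cover counting only.

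Tet2 is a dioxygenase that oxidises 5-methylcytosine to 5-hydroxymethylcytosine and further products, which can then be lost through replication or replaced by an unmodified cytosine. Its relative Tet1 is held at CpG-rich promoters by a CXXC domain, which Tet2 lacks. Bisulfite sequencing reads 5-methylcytosine and 5-hydroxymethylcytosine alike. RRBS cuts DNA with MspI at the sequence CCGG and keeps short fragments, so that most of what it reads lies in or near CpG-rich sequence.

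Tet2 KO cells had more methylation than WT cells at 5354 of the 6888 listed CpGs, which is 77.7% (exact 95% interval 76.7 to 78.7%), and lower at 1534. Gains had a median of 37.6 points (quartiles 30.4 and 48.7) and losses a median of -35.7 points (quartiles -29.5 and -45.2). The share of gains was larger among larger differences. It was 74.9% of 1673 CpGs between 25 and 30 points, 80.7% of 731 between 50 and 60 points and 87.3% of 244 between 75 and 100 points. A difference of the full 100 points was listed at 16 CpGs with a gain and at 3 with a loss. CpGs within 1000 bp of each other were merged into 5980 regions, of which 76.8% had a higher mean in Tet2 KO cells.

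**Figure D1:**
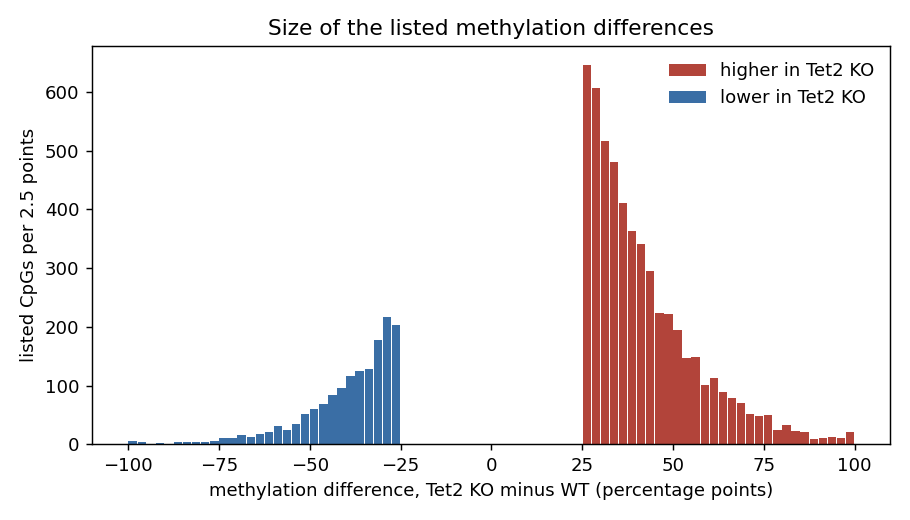
Number of listed CpGs (vertical axis, per 2.5 points) by the methylation difference between Tet2 KO and WT cells (horizontal axis, percentage points). Red bars are the 5354 CpGs higher in Tet2 KO cells and blue bars the 1534 lower ones, and the empty middle is the authors' minimum of 25 points.

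Most regions held a single listed CpG (5222 of 5980). The sequences shown first are from large gains near transcription start sites (TSSs), mostly picked for holding several listed CpGs. Each is the forward strand of mm9 with 25 bases on either side, and the listed CpGs are in capitals, so that any CpG in lower case was not in the list. The stretches at Dazl and Boll, both genes of germ cell RNA-binding proteins, lie in an intron of the gene in the GENCODE annotation, and the deposited annotation places the Dazl CpGs in a CpG island and the Boll CpGs in the promoter. The Tram2 stretch lies upstream of the gene, in a run of CGTG units. Those at Dbx1, Cmc1 and En1 lie upstream of the start sites, and the Cmc1 stretch overlaps an exon of the predicted gene Gm17399.
Dazl, chr17:50432642-50432707: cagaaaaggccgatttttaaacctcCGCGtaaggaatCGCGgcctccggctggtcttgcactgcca
Boll, chr1:55419761-55419824: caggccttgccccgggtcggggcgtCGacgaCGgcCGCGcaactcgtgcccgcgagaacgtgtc
Tram2, chr1:21070448-21070521: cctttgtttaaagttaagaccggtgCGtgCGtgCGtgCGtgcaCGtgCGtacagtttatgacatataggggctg
Dbx1, chr7:56892837-56892899: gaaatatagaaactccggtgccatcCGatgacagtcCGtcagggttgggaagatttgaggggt
Cmc1, chr9:118059774-118059843: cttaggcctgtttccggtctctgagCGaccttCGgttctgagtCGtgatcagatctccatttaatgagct
En1, chr1:122497922-122497975: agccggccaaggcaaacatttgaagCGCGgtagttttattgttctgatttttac
Each of these 6 stretches holds 1 CCGG site. At Dazl 4 of 6 CpGs were listed, at Boll 4 of 12 and at Tram2 6 of 7.

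Distal gains are shown for regions that were also picked for holding several listed CpGs. The stretch below the name 4930515B02Rik, the noncoding gene with the nearest start site, holds 8 listed CpGs of 16, and its 35-base unit recurs, with 73 of 101 bases equal to the base 35 positions further on. The Acvr2b stretch lies in an intron of that activin receptor gene, the next in an intron of Pkhd1, where 4 of the 5 CpGs belong to an L1Md_A element, and those named for Tle4 and Cadm1 lie between genes.
4930515B02Rik, chr4:140425121-140425256: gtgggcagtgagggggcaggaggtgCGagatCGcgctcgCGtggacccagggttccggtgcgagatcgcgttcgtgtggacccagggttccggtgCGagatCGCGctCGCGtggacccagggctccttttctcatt
Acvr2b, chr9:119327245-119327341: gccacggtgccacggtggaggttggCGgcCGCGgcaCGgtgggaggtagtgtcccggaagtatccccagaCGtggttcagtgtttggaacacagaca
Pkhd1 intron (nearest start site 4930486I03Rik), chr1:20476448-20476522: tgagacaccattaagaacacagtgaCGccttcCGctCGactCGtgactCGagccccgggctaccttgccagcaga
Tle4, chr19:14501115-14501183: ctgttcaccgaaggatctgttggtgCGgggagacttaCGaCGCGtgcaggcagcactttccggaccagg
Cadm1, chr9:47175623-47175701: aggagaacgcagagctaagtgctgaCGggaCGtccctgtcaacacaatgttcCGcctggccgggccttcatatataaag
Losses that ran over 3 neighbouring CpGs were found at 3 places, and all of these lie between genes and are named for the nearest start site. The one named for 4930433B08Rik also lies in an L1Md_A element, a young family with many near-identical copies. At AU023762, a noncoding gene, and Pnoc, which encodes the precursor of nociceptin, the losses lay within 2000 bp of the TSS.
Tdrd3, chr14:87967777-87967838: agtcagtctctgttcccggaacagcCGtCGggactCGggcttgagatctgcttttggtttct
4930433B08Rik, chr3:18457028-18457095: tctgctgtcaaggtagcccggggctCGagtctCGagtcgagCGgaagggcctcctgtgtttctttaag
Oxgr1, chr14:120545696-120545768: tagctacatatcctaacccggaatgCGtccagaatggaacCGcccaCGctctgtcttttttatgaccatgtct
AU023762, chr9:113496288-113496339: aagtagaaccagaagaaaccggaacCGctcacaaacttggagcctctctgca
Pnoc, chr14:66042790-66042865: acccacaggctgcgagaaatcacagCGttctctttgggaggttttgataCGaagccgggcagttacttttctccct

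The targeted gene was examined through the guide used to edit it. The 20-base guide matched 1 place in mm9 with an adjacent NGG motif, within the coding sequence of Tet2 on the reverse strand of chromosome 3, and is printed with its site.
Tet2 guide, chr3:133148620-133148639, reverse strand: GAAAGTGCCAACAGATATCC
The nearest listed CpG lay 31.8 kb from it, at position 133116868, with -72.6 points as the authors' value. It was the single listed CpG within 200 kb of the guide. This CpG lies outside the guide sequence and is no check of the knockout. Only 1 edited allele was located in each Tet2 KO clone, and the paper does not exclude a large indel on the other allele. Among the other genes of the methylation machinery, Tet1 had 1 CpG in its first exon with 49.8 points, the de novo methyltransferase Dnmt3a had 1 in its last exon with 46.9 points and Dnmt3b 1 in an intron with 44.6 points. Zfp57, which encodes a zinc finger protein that protects imprints, had 29.3 points at a CpG 301 bp from its start site. Of the 32 genes of a list of methylation machinery 9 had a listed CpG, and 7 of these had a higher mean in Tet2 KO cells (77.8%, beside 77.3% of all genes in the list).

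Distance to the TSS was compared next, since the deposited table gives it for every CpG. CpGs within 2000 bp of a TSS were 13.2% of the list, and 754 of these 912 gained methylation, or 82.7% (80.1 to 85.1%), beside 77.0% (75.9 to 78.0%) of the 5976 farther away. The share was highest within 100 bp, where 77 of 85 CpGs gained (90.6%, 82.3 to 95.8%), and lowest beyond 100000 bp, where 725 of 970 did (74.7%). In between it was 80.4% at 100 to 500 bp, 83.6% at 500 to 1000 bp, 81.8% at 1000 to 2000 bp and 81.4% at 2000 to 5000 bp, and the intervals of these neighbouring bins overlap. Upstream of the TSS 329 of 385 CpGs within 2000 bp gained methylation (85.5%, 81.5 to 88.8%), and downstream 425 of 527 did (80.6%, 77.0 to 83.9%). The size of the gains changed little with distance. Their median was 37.3 points within 2000 bp and 37.6 points beyond it, whereas losses had medians of -33.6 and -36.0 points.

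**Figure D2:**
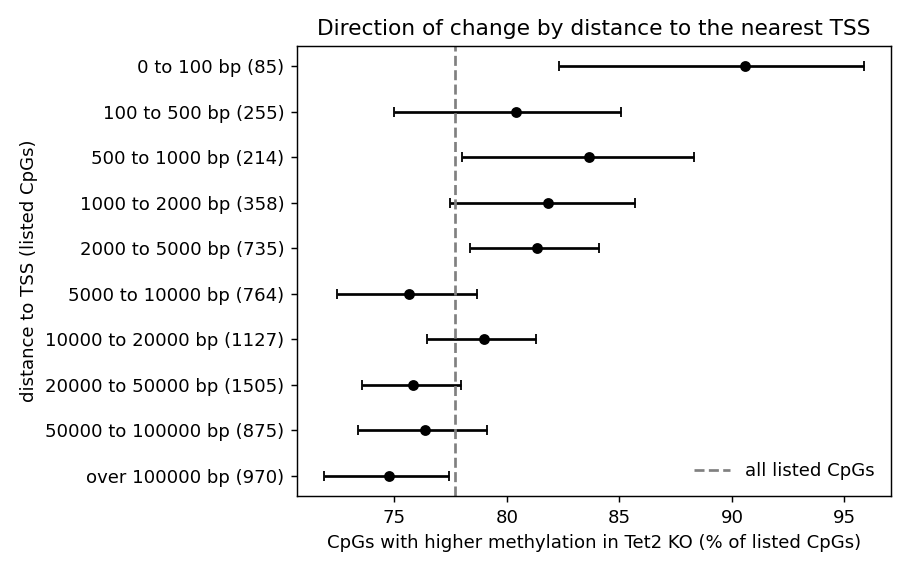
Share of listed CpGs with higher methylation in Tet2 KO cells (horizontal axis, percent) by distance to the nearest TSS (vertical axis, with the number of listed CpGs). Points are shares, bars exact 95% intervals and the dashed line the 77.7% of the whole list. The bin up to 100 bp stands highest, at 90.6%.

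These shares do not say how often a CpG near a TSS entered the list. To describe that, CpGs of mm9 in MspI fragments of 40 to 220 bp were counted, 1123428 in all, of which an unknown part was covered by enough reads. All 6879 listed CpGs on assembled chromosomes were set against this count, although 81.0% of them lie in such fragments. The counts per 1000 are therefore ratios and not shares of the CpGs in fragments. Within 100 bp of a GENCODE TSS there were 0.892 listed gains and 0.144 listed losses per 1000 CpGs in fragments. Between 2000 and 5000 bp the counts per 1000 were 9.86 gains and 2.63 losses. Listed changes were rare at start sites in both directions, and the few that were listed there were mostly gains. The CpG content of the sequence followed the same order. Listed CpGs had a median of 6 CpGs and 50.8% GC in the window that reaches 100 bases to either side, against 12 CpGs and 62.7% GC for the CpGs of all such fragments. Per 1000 CpGs, 13.6 gains and 4.42 losses were listed where the window held 4 or 5 CpGs, and 0.337 gains and 0.0932 losses where it held 15 or more. Gains had a median of 6 CpGs and 50.8% GC in the window and losses a median of 5 CpGs and 50.3% GC, and 46.8% of gains and 55.7% of losses had up to 5 CpGs. The share of gains was 72.8% (70.2 to 75.4%) of 1174 CpGs with up to 3 CpGs in the window and 82.1% (79.1 to 84.8%) of 726 with 10 to 14, but 78.4% (71.9 to 83.9%) of 194 with 15 or more.

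**Figure D3:**
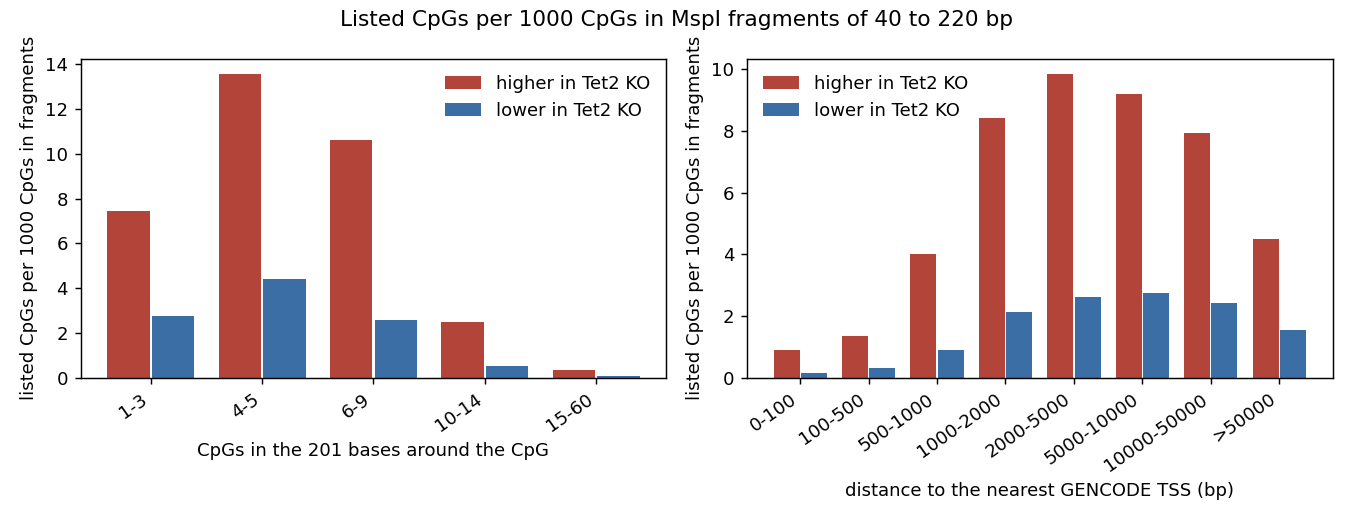
Listed CpGs per 1000 CpGs in MspI fragments of 40 to 220 bp (vertical axes), by the number of CpGs in the window of 100 bases to either side (left) and by distance to the nearest GENCODE TSS in bp (right). Listed CpGs outside such fragments are counted too. Red bars are CpGs higher and blue bars CpGs lower in Tet2 KO cells. Gains peak at 13.6 per 1000 at 4 or 5 CpGs and at 9.86 per 1000 at 2000 to 5000 bp.

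By gene annotation most listed CpGs were intergenic (2853) or intronic (2571), with 846 in exons and 305 in promoters, which HOMER sets from 1 kb upstream to 100 bp downstream of the TSS. Promoter CpGs gained methylation in 266 of 305 cases (87.2%, 82.9 to 90.7%). Exonic, intronic and intergenic CpGs gained in 77.4, 77.2 and 77.1% of cases, all close to the 77.7% of the list. First introns had 80.2% (77.5 to 82.7%) of 943 CpGs gained and later introns 75.4% (73.3 to 77.5%) of 1628. Within exons the share was 76.9% for first, 77.1% for middle and 78.7% for last exons. In 3′ UTRs 102 of 124 CpGs gained (82.3%, 74.4 to 88.5%) and in 5′ UTRs 22 of 30 (73.3%, 54.1 to 87.7%). CpG islands are CpG-dense stretches that mark many promoters. The deposited detailed annotation gives 1 label per CpG, and 96 listed CpGs carried the island label. Of these, 81 gained methylation (84.4%, 75.5 to 91.0%). The named promoter CpGs carried the promoter label, so island CpGs in promoters can be missing from the 96. The gene of the nearest start site was the gene whose exon or intron held the CpG for 2440 of 3390 CpGs (72.0%), so a gene name below often marks a neighbour.

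Repeats held 1511 of the listed CpGs, of which 74.5% (72.2 to 76.6%) gained methylation, beside 78.6% (77.5 to 79.7%) outside repeats. No listed CpG in promoters, UTRs, exons or transcript ends carried a repeat label, so all of those count as outside repeats. Outside repeats 78.7% of 1907 intergenic and 77.8% of 2006 intronic CpGs gained. The share was lower in long terminal repeat (LTR) elements, the relics of retroviruses, at 306 of 448 (68.3%, 63.8 to 72.6%). It was 69.2% of 253 CpGs in the ERVK class, 64.9% of 57 in ERV1, 71.8% of 39 in ERVL and 66.7% of 99 in MaLR. RLTR elements of the ERVK class gained at 75 of 121 CpGs (62.0%) and intracisternal A particles at 20 of 29. RMER17B gained at 17 of 18 and RLTR17 at 11 of 12, whereas RLTR10 gained at 5 of 12 (41.7%, 15.2 to 72.3%) and its internal part RLTR10-int at 11 of 14. These families were picked after their values were seen. SINE elements of the Alu (B1) class gained at 81.1% of 317 CpGs, B2 at 74.8% of 115 and B4 at 73.2%. L1 elements gained at 74.2% (69.3 to 78.6%) of 360 CpGs, and the young L1Md subfamilies at 70.5% of 176.

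**Figure D4:**
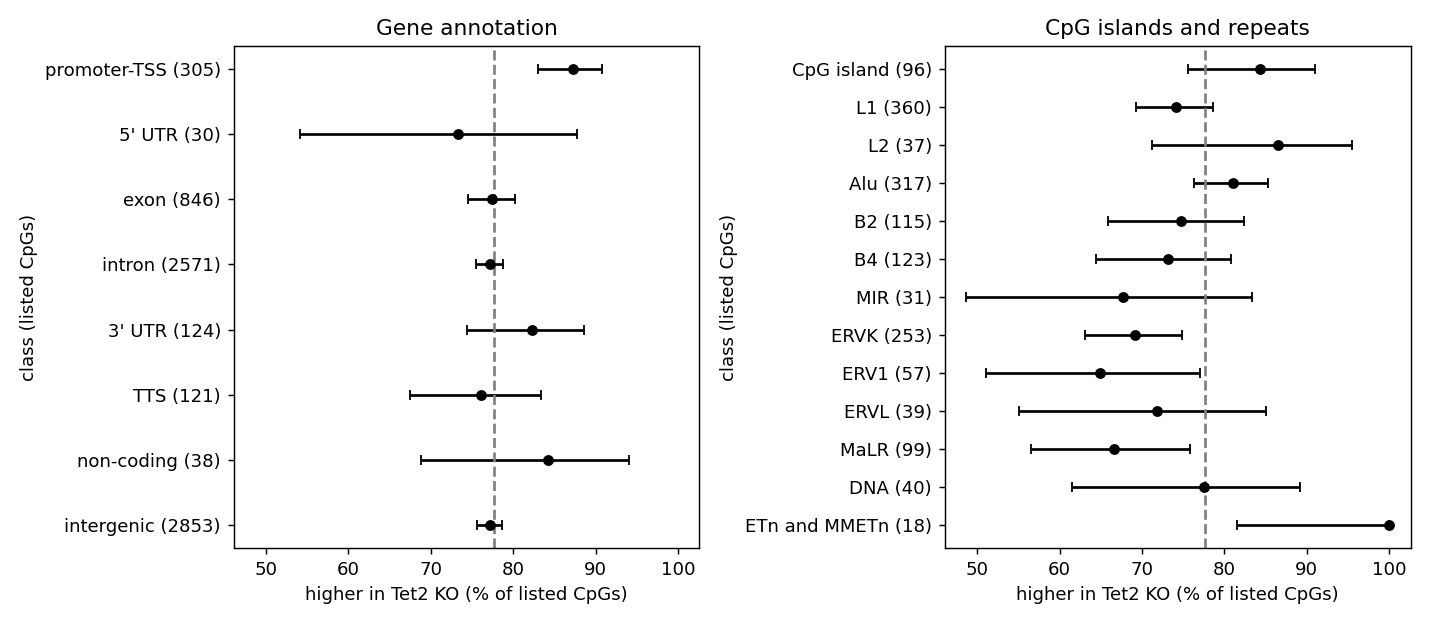
Share of listed CpGs with higher methylation in Tet2 KO cells (horizontal axes, percent) by gene annotation (left) and by CpG island label or repeat class (right), with the number of listed CpGs beside each class. Points are shares, bars exact 95% intervals and the dashed lines the 77.7% of the whole list. Promoters lie above the line at 87.2%, and ERVK and MaLR elements below it at 69.2 and 66.7%.

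The early transposon group, ERVK repeats with names that begin with ETn or MMETn, had 18 listed CpGs at 14 places. All of them gained methylation, between 25.4 and 67.1 points with a median of 44.1 points. Of these CpGs 15 lay in MMETn-int, and ETnERV2-int was among the other names. This family was picked after its values were seen. Of the 18 CpGs, 11 at 8 places on 7 chromosomes lay close to the 10-base word ccggacacaa, which begins with the MspI site. This word was chosen because the largest number of 61-base windows around these CpGs share it. The copies below are turned so that the word reads forward, with the listed CpGs in capitals.
MMETn copy, chr1:10812098-10812166, reverse strand: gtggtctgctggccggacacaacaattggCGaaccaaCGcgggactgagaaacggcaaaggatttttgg
MMETn copy, chr14:124429310-124429370, forward strand: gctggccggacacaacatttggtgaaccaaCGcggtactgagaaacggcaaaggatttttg
MMETn copy, chr17:32092211-32092279, forward strand: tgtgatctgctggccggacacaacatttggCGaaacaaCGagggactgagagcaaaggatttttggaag
MMETn copy, chr7:66640030-66640090, reverse strand: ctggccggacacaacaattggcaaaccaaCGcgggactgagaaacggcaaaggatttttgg
MMETn copy, chr8:59285210-59285272, forward strand: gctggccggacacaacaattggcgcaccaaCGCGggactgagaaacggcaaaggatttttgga
The copies were picked for holding this word near a listed CpG, and RRBS reads next to MspI sites. That the listed CpGs of these copies fall in the same stretch of the element follows from this choice. Reads from near-identical copies can be hard to place, so the position of a gain within the family is uncertain.

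Listed CpGs near the TSS were also counted by gene. A listed CpG lay within 2000 bp of the TSS of 746 genes, and 619 of these genes had 1 such CpG. Of 102 genes with 2, 72 had gains alone, 9 had losses alone and 21 had both. Of the 25 genes with 3 or more such CpGs, 16 had gains alone, 9 had both and none had losses alone. Dazl gained 60.5 to 76.6 points at 4 CpGs of a CpG island, 264 to 278 bp from its start. Boll, a gene of the same family of RNA-binding proteins, gained up to 54.5 points at 4 promoter CpGs, with a mean of 43.2 points. Neither set was listed for Tet1 KO or DKO cells, nor in the direct comparison of Tet2 KO with Tet1 KO cells. CpGs that are not listed may have had too few reads or may not have passed the authors' limits. Their methylation in Tet1 KO and DKO cells is therefore unknown. In TKO cells, compared with the same WT clones, 2 of the Dazl CpGs had -37.7 and -39.5 points in the authors' deposited table. Tram2, which encodes a protein of the translocon, gained at 7 CpGs, from 27.6 to 82.4 points.

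Developmental regulators were among the other genes with 3 or 4 gains. Scrt1, a neuronal zinc finger repressor, gained 35.5 to 63.3 points at 4 CpGs of its 5′ UTR within 10 bp. Esrrg, an orphan nuclear receptor, gained 44.0, 30.3 and 29.5 points at 1 start site and 31.2 points at another. Dbx1, a homeobox gene of ventral spinal cord progenitors, gained 59.3, 96.4 and 49.1 points at 3 promoter CpGs. Card6, of the caspase recruitment domain proteins, gained 86.9, 70.8 and 51.1 points. Cmc1, which takes part in cytochrome c oxidase assembly, gained 72.2, 71.3 and 39.8 points within 19 bp. Col11a2, a cartilage collagen chain, gained 29.2 to 38.5 points at 4 CpGs. The chemokine gene Cxcl14 gained 54.8, 59.3 and 38.5 points, the noncoding gene 2210019I11Rik, which overlaps the pancreatic homeobox gene Pdx1, gained 45.7, 71.2 and 34.1 points, and the protocadherin Pcdhgb2 gained 56.4, 27.6 and 51.7 points. Losses at 2 CpGs each were found at AU023762 (-81.5 and -52.7 points), Pnoc (-50.1 and -54.8), Mir711 (-48.1 and -46.2), Brap (-37.8 and -46.3), the adenylate cyclase gene Adcy9 (-42.3 and -40.4) and 4933432I09Rik (-36.2 and -40.7).

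**Figure D5:**
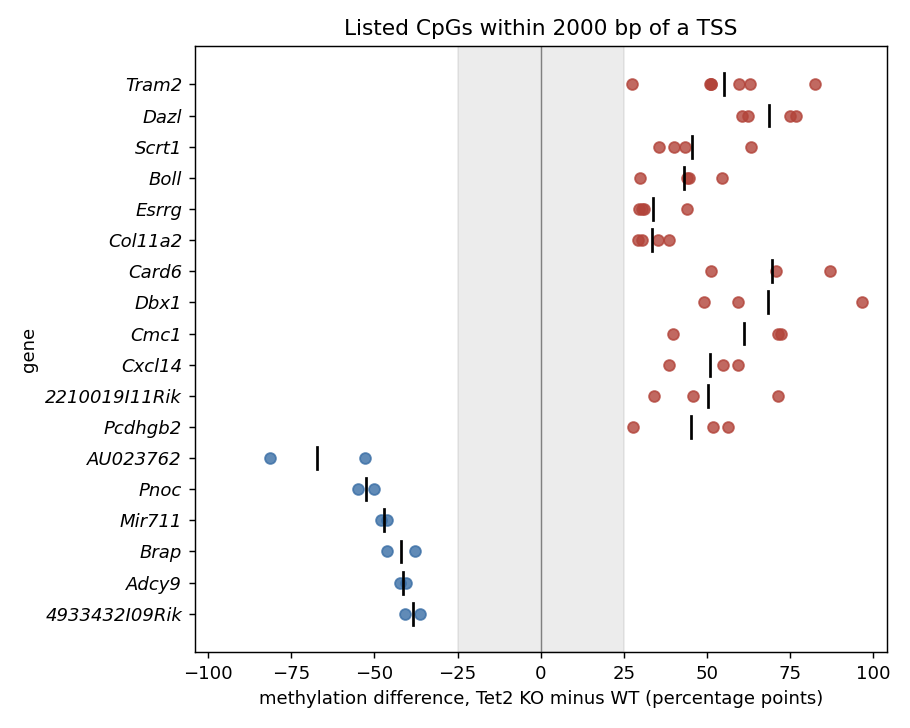
Methylation difference between Tet2 KO and WT cells in percentage points (horizontal axis) at each listed CpG within 2000 bp of the TSS of the named genes (vertical axis). Dots are CpGs, red for genes with a higher and blue for genes with a lower mean, black bars are means over CpGs, and the grey band holds differences under 25 points, which the list leaves out. Dbx1 reaches 96.4 points and AU023762 -81.5 points.

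Transcription factors of development were described by family. Of the Fox, Sox, Tbx and Gata genes, which pattern the germ layers, 37 had a listed CpG at any distance, and 35 of these had a higher mean in Tet2 KO cells (94.6%), beside 3506 of 4533 genes of the whole list (77.3%). By CpG, 64 of 69 gained. Gata4 had a lower mean, with 27.6 points at 933 bp and -52.7 points at a distal CpG. Within 2000 bp all 10 genes of these families had a higher mean, beside 615 of all 746 genes (82.4%). Sox14 gained 53.2 points and Gata3 gained 55.3 and 30.8 points at 2 intronic CpGs. Of the homeobox and Pax genes outside the Hox clusters, 57 of 69 had a higher mean, and 122 of 147 CpGs gained (83.0%). En1, a midbrain and limb regulator, gained 84.8 and 86.4 points at adjoining CpGs at -1117 and -1115 bp from its start, and Evx1, a primitive streak gene, gained 72.0 points. Hox genes had 8 listed CpGs at 6 genes, with 7 gains and a loss of -50.4 points near Hoxc10. Of bHLH and Notch repressor genes 10 of 14 had a higher mean (71.4%), with 76.7 points at a distal CpG named for Hes1, 48.1 points at Olig3 and 36.0 points at Hes2, and with -31.5 points at Neurog3.

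Genes of pluripotency and of its exit were counted beside the whole list. Of 33 pluripotency genes 13 had a listed CpG, 10 with a higher mean (76.9%, beside 77.3% of all genes). Of these 13 genes 2 had one within 2000 bp, beside 746 of all 4533 genes. These were Gbx2, a transcription factor downstream of LIF, with 34.6 points and the Nodal inhibitor Lefty1 with -39.5 points. At distal CpGs Klf2 had 78.5 points, Sox2 had 56.7 and 65.8 points and Esrrb, a nuclear receptor of the naive state, had -60.5 and -48.3 points. Nr5a2 gained at 5 of 5 distal CpGs, from 25.1 to 50.4 points. Of 19 primed epiblast genes 6 had a listed CpG, among them Mixl1, a primitive streak homeobox gene, with 47.8 points at -195 bp from its start. Germline and meiosis genes had 17 gains in 19 CpGs (89.5%, beside 77.7% of the list). The 4 gains at Dazl and the 4 at Boll each lie in 1 short stretch, so they are not separate observations. By gene, 9 of 11 had a higher mean (81.8%, beside 77.3% of all genes) and 2 had a lower mean. Besides Dazl and Boll the genes with gains included Mei1 with 34.9 points near its start and the piRNA factor Asz1 with 32.9 points at 94 bp. Imprinted genes had 16 gains in 21 CpGs (76.2%), and 11 of 14 genes had a higher mean (78.6%). Phlda2, which limits placental growth, had 80.9 points, Meg3, the noncoding RNA of the Dlk1 domain, 58.8 points at -77 bp, and Gnas -44.4 points in an exon. Markers of endoderm, trophoblast and mesoderm had 20 gains in 25 CpGs (80.0%), while 8 of 12 genes had a higher mean (66.7%, beside 77.3% of all genes), with 31.0 points at Hand1.

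Signalling and adhesion genes were counted by CpG, beside the 77.7% of the whole list. Wnt pathway genes had 27 gains in 38 CpGs (71.1%), and 16 of 24 genes had a higher mean (66.7%), with 45.5 points at the receptor Fzd2, 43.3 points at Fzd10 and 35.2 points at the inhibitor Nkd1. Genes of the TGF-beta, BMP and Nodal pathway had 34 gains in 43 CpGs (79.1%), with 55.6 points at the BMP antagonist Nog. FGF signalling genes had 26 gains in 32 CpGs (81.3%). Among them Spred2, an inhibitor of Ras signalling, gained at 7 of 7 CpGs and Etv5, a target of FGF, at 4 of 4, from 30.2 to 85.1 points, while the ligand Fgf18 had -31.9 points and Fgf8 had a gain and a loss. Cadherins and protocadherins had 39 gains in 49 CpGs (79.6%), with 65.3 and 70.1 points at Pcdhgb8 and 59.0 points at Fat1. Axon guidance genes had 46 gains in 59 CpGs (78.0%), with 31.1 points at Sema6b, 25.9 points at Ephb3 and 28.6 and 25.8 points at Plxnc1.

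Genes of differentiated cells and of other families were counted in the same way, beside 77.7% of CpGs and 77.3% of genes in the whole list. Potassium and voltage-gated channel genes gained at 57 of 81 CpGs (70.4%), and 70.6% of 51 genes had a higher mean, with 68.6 points at Kcnmb1, 42.9 points at Kcnma1 and -40.7 points at Kcng1. Synaptic genes gained at 35 of 51 CpGs (68.6%), and 76.5% of 34 genes had a higher mean, with 99.1 points at a promoter CpG of Snap25, a SNARE protein of vesicle fusion, and -40.4 points at Rab3a. Collagen and matrix genes gained at 40 of 57 CpGs (70.2%), and 67.6% of 34 genes had a higher mean, with 40.4 points at Col9a2 and -48.7 points at the proteoglycan gene Bcan. Contractile genes gained at 18 of 25 CpGs (72.0%), with 67.0 points at the intermediate filament gene Des, while all 4 CpGs named for the sarcomere genes Ttn and Tpm2 were lower, from -36.5 to -81.3 points. Kinase and GTPase regulators gained at 99 of 130 CpGs (76.2%), and 79.3% of 87 genes had a higher mean, with 72.2 points at Rab37. Zfp genes gained at 90 of 119 CpGs (75.6%), and 76.6% of 77 genes had a higher mean, with 64.0 points at Zfp408. MicroRNA genes were the nearest start site of 248 CpGs, 183 of them gained (73.8%), and 75.4% of 179 microRNA genes had a higher mean. A gain of 100 points lay 320 bp from Mir141, in the end region of Phb2. Of the 2-cell-like list 2 genes had a listed CpG, Eif1ax with 66.5 points and Eif1a with 31.1 points, both gained. No list was tested.

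Apart from 4930515B02Rik, with its 8 CpGs in 1 region, the 10 genes with the most listed CpGs more than 2000 bp from the TSS had them in several regions. Rassf3, a Ras association domain gene, gained at 9 of 9 CpGs in 6 regions, 28.6 to 63.4 points, 7 of them in its first intron. Kank1 and Rnf220, a ubiquitin ligase, each gained at 8 of 8 CpGs, with means of 45.8 and 39.7 points, and 4 of the CpGs named for Kank1 lie in exons of its neighbour Dock8. Cmip gained at 8 of 9 and the fragile site gene Wwox at 7 of 9, all in its introns. Ajap1, an adherens junction gene, had 5 gains and 4 losses, among them 95.3 points in an intron and -38.6 and -38.0 points at adjoining CpGs in another. Tle4, a Groucho corepressor, gained at 7 of 7 CpGs, of which 4 within 18 bp had 69.9, 75.9, 92.6 and 97.1 points. None of those 4 was in the other lists. The noncoding gene 1700017J07Rik gained at 8 of 8 CpGs in 4 regions.

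Pairs of successive listed CpGs up to 50 bp apart had the same direction in 594 of 648 cases (91.7%), pairs 50 to 200 bp apart in 72.4% of 145, pairs 200 to 1000 bp apart in 80.0% of 115, pairs 1000 to 5000 bp apart in 71.4% of 182 and pairs 5000 to 50000 bp apart in 67.7% of 1280. Any 2 CpGs of the list would share a direction in 65.4% of cases from the counts of gains and losses alone. Most regions held a single listed CpG (5222 of 5980). Of the 105 regions with 3 or more, 82 had gains alone, 3 had losses alone and 20 were mixed. At Cadm1, a cell adhesion gene, 5 intergenic CpGs gained 67.7 to 76.7 points, and at Acvr2b 5 CpGs gained 27.3 to 77.2 points. The CpGs in the Pkhd1 intron gained 63.6, 33.1, 57.5, 61.8 and 37.1 points, and those at P2rx4, an ATP-gated channel gene, 27.4 to 73.5 points over 1201 bp. The 8 CpGs of the repeated unit near 4930515B02Rik fell into 2 sets, the first 3 with 27.5, 27.9 and 31.1 points and the other 5 with 48.8 to 76.6 points. In Tet1 KO cells, compared with the same WT clones, the first 3 had 64.4, 69.4 and 48.2 points in the authors' deposited table, and the other 5 were not listed. In TKO cells the first 3 had 66.7, 38.6 and 36.8 points. Of the other 5, those at 140425216 and 140425230 had 44.5 and 45.2 points in TKO cells. In Tet2 KO minus Tet1 KO cells the other 5 had 43.3 to 74.6 points, and the CpG at 140425152 had -28.0 points. Where the direct comparison lacked the listed position, the value at the next base, the cytosine of the other strand, was used.

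The losses shown above had values of -56.4, -87.9 and -30.2 points near Tdrd3, -52.8, -37.3 and -32.8 points near 4930433B08Rik and -37.8, -37.0 and -30.2 points near Oxgr1. Next to these stood 2 CpGs under the name Mir6954, which lie in Mroh1, with -85.0 and -71.4 points. Mixed regions were named after their values were seen. At Zfp704 the successive CpGs had 35.2, -37.8 and 91.9 points within 49 bp, and at Hlx, a homeobox gene, -27.8, 72.9, -33.4 and 32.5 points. At the class I histocompatibility gene H2-Q6, 6 CpGs ranged from -51.7 to 52.2 points, and the deposited annotation placed 3 of them in another transcript, of H2-Q8, so near-identical copies could share reads there.
Zfp704, chr3:9604700-9604799: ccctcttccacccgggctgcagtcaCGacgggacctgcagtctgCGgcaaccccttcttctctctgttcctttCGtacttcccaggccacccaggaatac

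The single largest gains were 16 CpGs at 100 points, among them CpGs in introns of Bik, a BH3-only gene of cell death, Gramd4 and Cmklr1, and a CpG at -1370 bp from the start of Rerg in an ERV1 repeat. Losses of 100 points were listed for CpGs named for Crmp1, Rhof and 9630013K17Rik. At Chd3os a CpG in an exon of Chd3 had -97.5 points. Some of these CpGs were also in the other lists, which share the WT clones. The authors' values for the Bik CpG were 38.5 points for Tet1 KO and 100 points for TKO cells. The Rerg CpG had 64.1 points for Tet1 KO cells and the Crmp1 CpG had -38.2 points for TKO cells. Across chromosomes the share of gains ran from 70.2% of 265 CpGs on chromosome 3 to 81.7% of 536 on chromosome 11. Chromosome 1 had the most listed CpGs per 1000 CpGs in fragments, 10.5, followed by chromosome 8 with 8.78. The X chromosome had 0.961, with 32 gains in 44 CpGs. Listed CpGs outside the fragments are counted in these ratios.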

How the data were processed

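Genomic DNA of undifferentiated ESC clones was used for RRBS, and groups were taken from the sample titles. The genotype label of a DKO library reads Tet2 KO and that of the TKO libraries reads DKO, against their titles. The Tet2 KO and WT groups are not touched by this. Reads were trimmed with Trim Galore 0.5 and aligned with Bismark 0.19.1, both per the labels, against mm9. The authors called CpGs with methylKit at a minimum coverage and q-value and a difference of at least 25 percentage points, and annotated them with HOMER. The deposited table is read here as a score: the authors' difference in methylation per CpG in percentage points and a distance to the TSS in bp. It has no column of a single clone, so the 0 columns of per-sample values allowed no left-out clone and no test over clones.

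CpGs were counted by direction with exact (Clopper-Pearson) 95% intervals, with CpGs up to 1000 bp apart merged into regions and a window of 2000 bp around the TSS (Python 3.11.15, pandas 2.3.3, numpy 2.4.6, scipy 1.17.1, matplotlib 3.10.9). Sequence came from NCBIM37 (mm9) and start sites for the counts per 1000 CpGs from GENCODE vM1. All 6879 positions on assembled chromosomes were CpGs, and 9 CpGs on unplaced sequences were not looked up. RefSeq transcripts of the annotation were matched to gene symbols by a table of assembly GRCm38.p6, used for names alone. The counting functions were tested on simulated data.

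The members, the 23 gene lists and the rules were chosen with earlier results of these data known. Named genes were the 12 with the most gains and the 6 with the most losses within 2000 bp of the TSS where all CpGs agreed, the 10 with the most CpGs beyond, the highest and lowest differences, up to 3 genes per list by the mean near the TSS, the regions with the most CpGs of 1 direction, and the Tet and Dnmt genes. Other genes were named after their values were seen. Alternatives were a larger minimum difference, regions in place of CpGs, autosomes alone, CpGs outside repeats, other windows and merging distances, and GENCODE start sites, the last chosen after seeing the data.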

Additional observations from a re-analysis of the deposited data

How the results depend on the processing

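The share of gains kept its direction under every alternative tried. Over 108 alternatives for the shares of the list, of regions, of CpGs near a TSS and of 20 classes, for neighbouring pairs and for GC content, 100 stayed within the exact interval of the main value (or, for GC content, within 1 SD over CpGs) and 8 moved beyond it. Some of the 100 could not differ, because the alternative removed no CpG. This held outside repeats for promoters, UTRs, exons, transcript ends and noncoding transcripts, and on autosomes alone for several classes. With a minimum difference of 40 points the share of gains was 80.4% of 2899 CpGs and, within 2000 bp of a TSS, 86.8% of 365. In the same setting it was 93.5% at promoters, 81.8% in exons, 79.0% in introns, 80.2% between genes and 92.9% at CpGs with the island label. Successive CpGs up to 200 bp apart had the same direction in 88.1% of 793 pairs, and 91.7% of 648 pairs did up to 50 bp. No paired analysis was possible because the values pool the clones of each genotype.

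Depth, q-values and levels per CpG are not in the list used here. The CpGs tested but not listed are unknown, so shares describe the list and not all CpGs read. The list holds differences of at least 25 points alone, which sets the smallest gain and loss. The 2 Tet2 KO clones come from 1 parental line, and what is shared by these clones cannot be told apart from the effect of the deletion. 5-Hydroxymethylcytosine and 5-methylcytosine cannot be told apart by this method.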
